A study of Mus musculus with 6 samples.

Results

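The glucocorticoid receptor Nr3c1, the mineralocorticoid receptor Nr3c2 and 8 genes that they are known to control, Fkbp5, Tsc22d3, Zbtb16, Klf9, Sgk1, Cdkn1a, Mt1 and Mt2, were read in mouse hearts. These 10 genes were chosen by name, through their Ensembl identifiers, and all 10 were found among the 16018 genes of the deposited table. The hearts came from 3 female mice with the genotype NBCe1-B/C KO and 3 female WT mice, between 4 and 5 weeks old, with 1 RNAseq library per heart. The KO mice lack the B and C variants of NBCe1, the sodium bicarbonate cotransporter that Slc4a4 encodes, from conception and in all tissues, so that an effect in the heart muscle cannot be told apart from one in another organ. Both genotypes were bred on a C57BL/6J background, the labels name no treatment, and neither corticosterone nor the time of day at which the hearts were taken is given in the sources used here.

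Glucocorticoids are steroid hormones of the adrenal gland that are secreted in a daily rhythm and under stress. They enter the cell and bind Nr3c1, which leaves its chaperones, moves to the nucleus and binds glucocorticoid response elements, short inverted repeats in DNA, where it switches genes on; it also holds back inflammatory genes. Nr3c2 binds aldosterone and, in heart muscle cells, mostly glucocorticoid, because these cells have little of the enzyme that inactivates it.

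The targeted gene, Slc4a4 (ENSMUSG00000060961), was listed at 264.0, 944.8 and 268.7 normalized counts in the libraries labelled KO replicates 1, 2 and 3, while the WT hearts had 675.1, 822.2 and 788.8. With its value above that of each WT heart, the library labelled KO replicate 2 goes against its label, and each comparison below uses the libraries as labelled. A normalized count is the number of reads on a gene divided by a size factor of its library. Reads on genes ran from 41364857 to 49100802 per library, each KO library being deeper than each WT library, and the members had between 156 and 6427 reads per library, where counting error alone is 8.01% at the lowest. All 10 cardiomyocyte markers were present, from Nppa at its lowest of 8086 to Myh6 at its highest of 1259230 normalized counts. The library labelled KO replicate 1 most often held the extreme value: 28.2% of 16016 genes had their highest and 25.5% their lowest value there. WT replicate 1 came next, with 23.1% highest and 21.5% lowest. All 6 adipocyte markers in the table were lowest in KO replicate 1, with Adipoq at 15.9 normalized counts against 203.9 to 569.4 in the other 5 libraries. Differences in bulk hearts can come from fewer cells of a type or from less RNA per cell, which cannot be told apart.

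All 10 genes had a higher mean log2 level in KO than in WT hearts, but none passed the test. This rested in part on KO replicate 1, since without it 7 of the 10 had a higher mean in KO hearts. Their median log2 fold change, KO minus WT, was 0.31, against -0.0043 over all genes tested. It was 0.08 without KO replicate 1, 0.55 without the library labelled KO replicate 2 and 0.20 without WT replicate 2. By limma on log2(normalized count + 1), with Benjamini-Hochberg adjustment over 16016 genes and a threshold of 0.05, 0 of the 10 were called, against 0% of all genes. At an unadjusted p under 0.05 there were 4 of the 10, Nr3c1, Nr3c2, Zbtb16 and Klf9, all higher in KO hearts, against 13% of all genes in that direction. In both directions 3764 genes were below that p. On the recovered reads, edgeR called 0 genes (3837 at an unadjusted p under 0.05) and DESeq2 called 1587. Among the genes that DESeq2 placed higher in KO hearts was 1 of the 10, Klf9, against 8.22% of the 11979 genes to which it gave an adjusted p. In 3 of the 10, Nr3c2, Zbtb16 and Klf9, all KO libraries lay above all WT libraries, against 15.6% of all genes, and in 0 of the 10 did all KO libraries lie below, against 14.6%.

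**Figure D1:**
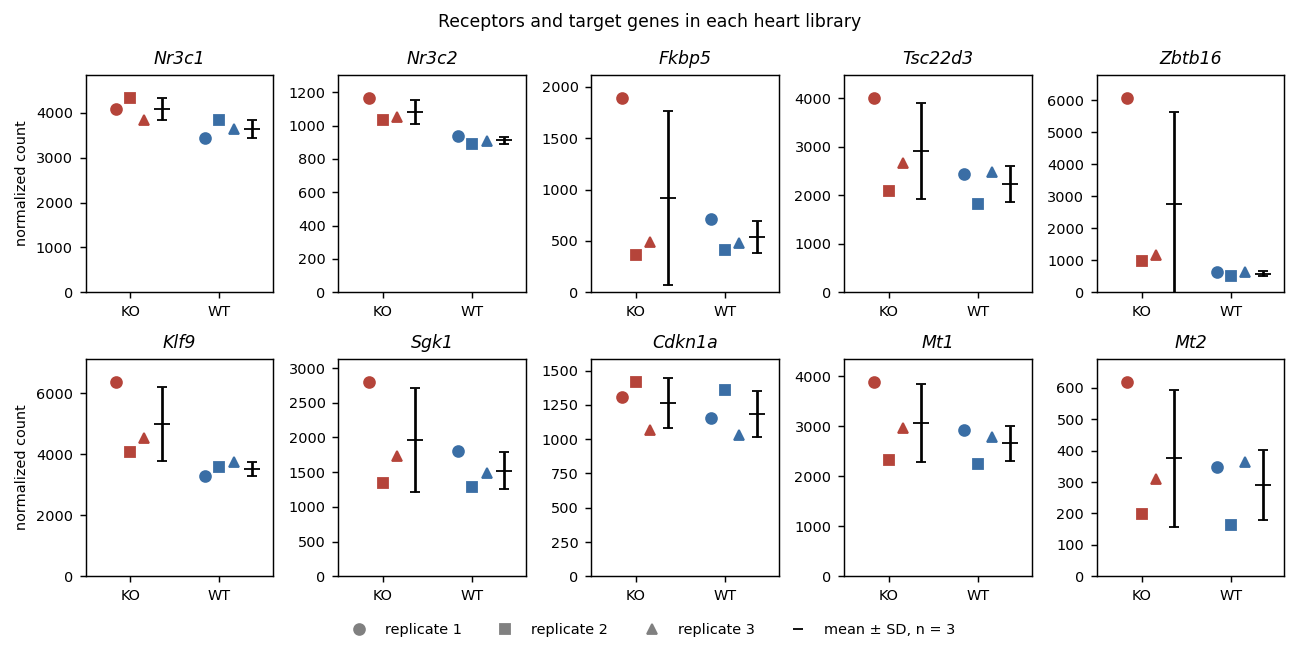
Normalized count (y axis, linear from 0) of the 10 genes in each library of KO (red) and WT (blue) hearts. Marker shapes give the replicate number, which names a library. Black bars give the mean ± SD of 3 hearts. The lower arm of the KO bar for Zbtb16 runs below 0 and is cut by the axis. The library labelled KO replicate 1 is the highest of the 6 for every gene but Nr3c1 and Cdkn1a.

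Both receptors had slightly higher means in KO than in WT hearts, and neither passed the test. Nr3c1 (ENSMUSG00000024431; GRCm38 chromosome 18, 39410545 to 39519421, minus strand) was listed at 4098, 4336 and 3848.9 normalized counts in KO replicates 1 to 3 and at 3449, 3849.3 and 3634 in WT replicates 1 to 3. Only KO replicate 3 and WT replicate 2 overlapped, by 0.331 of a normalized count. For Nr3c1 the log2 fold change was 0.17 (SE 0.07, 95% interval 0.01 to 0.33, adjusted p = 0.198 from limma). Nr3c2 (ENSMUSG00000031618; chromosome 8, 76899442 to 77245012, plus strand) was listed at 1166, 1033 and 1051 normalized counts in KO and at 935.3, 888.8 and 908.4 in WT hearts. Every KO library was above every WT library, and the WT hearts were close together. Its log2 fold change was 0.25 (SE 0.08, 95% interval 0.07 to 0.42, adjusted p = 0.112 from limma), and an exact two-sided permutation test gave p = 0.1, the smallest that 3 hearts against 3 allow.

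Both receptor values shrank when each library was corrected for the length and GC content of transcripts. The corrected log2 fold change was 0.02 (95% interval -0.14 to 0.19) for Nr3c1 and 0.10 (-0.07 to 0.27) for Nr3c2. Per kb of exon, the mean level in WT hearts was 474.2 ± 26.1 normalized counts for Nr3c1 and 140.7 ± 3.61 for Nr3c2 (SD, n = 3), so that the glucocorticoid receptor transcript was the more abundant one in each heart. By annotation, Nr3c2 shares 3.82% of its exon length with a transcript on the other strand, Gm10649.

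Of the genes that set receptor activity, 11 of 12 were in the table, and 0 passed the test in either direction. Their median log2 fold change was 0.03, and -0.03 without WT replicate 3. Hsd11b1, the enzyme that regenerates active glucocorticoid inside the cell, was listed at 280.9, 219.2 and 369.8 normalized counts in KO and at 183.4, 256.8 and 187.7 in WT hearts. The groups overlapped, with a log2 fold change of 0.45 (95% interval -0.02 to 0.93, adjusted p = 0.229 from limma). Hsd11b2, which inactivates the hormone, was the list's gene not among the rows used here. The next highest was Abcb1a, a pump that exports steroids, with a log2 fold change of 0.43 (adjusted p = 0.11 from limma). At the other end were the receptor's chaperones Hsp90aa1 at -0.21 (adjusted p = 0.206) and Ptges3, also called p23, at -0.17 (adjusted p = 0.208). Fkbp4, the immunophilin that carries the receptor inwards and the counterpart of Fkbp5, was at 0.03 (95% interval -0.16 to 0.21).

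The co-regulators of steroid receptors, 13 in number, lay on 1 side. This list, like the others, was chosen with earlier results of these data known. The shares over all genes given beside its counts are therefore a description and no test of the list. All 13 had each KO library above each WT library, against 15.6% of all genes, and their median log2 fold change was 0.32. By limma 0 of them passed the test, and 13 of 13 were higher at an unadjusted p under 0.05, against 13% of all genes, while DESeq2 called 9 higher, against 8.22%. The highest were Nrip1, a corepressor, at 0.60 (95% interval 0.30 to 0.90, adjusted p = 0.0815) and Ep300, an acetyltransferase, at 0.49 (0.20 to 0.78, adjusted p = 0.087). The lowest were Smarca4, the motor of a chromatin remodelling complex, at 0.24 and Crebbp, the relative of Ep300, at 0.25. In no other list were all genes on 1 side by the count of libraries that do not overlap. The counts above were made without correction for length and GC content, and with that correction the median was 0.17. Nrip1 was then at 0.41 (95% interval 0.15 to 0.67) and Ep300 at 0.25 (0.01 to 0.50). Smarca4 was at 0.096 (-0.05 to 0.24) and Crebbp at 0.0040 (-0.19 to 0.20).

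Fkbp5 (ENSMUSG00000024222; chromosome 17, 28399094 to 28517527, minus strand) encodes the chaperone that lowers the receptor's affinity for hormone, and it is among the most hormone-responsive genes of many tissues. It was listed at 1894, 363.9 and 488.7 normalized counts in KO and at 711.0, 414.8 and 475.4 in WT hearts. KO replicate 1 stood far above the other 5 libraries, 2.66 times the next highest, and the library labelled KO replicate 2 was the lowest of all. Its log2 fold change was 0.42 (SE 0.53, 95% interval -0.78 to 1.62, adjusted p = 0.674 from limma), and without KO replicate 1 it was -0.30 (-0.83 to 0.23). The mean of KO replicates 2 and 3 was 0.799 times the WT mean.

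Tsc22d3 (ENSMUSG00000031431; chromosome X, 140539528 to 140600659, minus strand), the leucine zipper protein GILZ that carries part of the anti-inflammatory action, was listed at 4008, 2087 and 2656 normalized counts in KO and at 2439, 1812 and 2471 in WT hearts. KO replicates 1 and 3 were above all WT hearts, and the library labelled KO replicate 2 was below 2 of the 3. A log2 fold change of 0.34 was found (SE 0.22, 95% interval -0.16 to 0.84, adjusted p = 0.381 from limma). It was 0.09 without KO replicate 1 and 0.56 (adjusted p = 0.171) without the library labelled KO replicate 2, where DESeq2 gave an adjusted p of 0.0334.

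Zbtb16 (ENSMUSG00000066687; chromosome 9, 48654297 to 48836222, minus strand), the zinc finger repressor PLZF, had the largest difference of the 10. It was listed at 6077, 986.2 and 1167 normalized counts in KO and at 622.9, 507.3 and 619.7 in WT hearts. Each KO library was above each WT library, and KO replicate 1 was 5.21 times the next highest library. The log2 fold change was 1.72 (SE 0.58, 95% interval 0.41 to 3.03, adjusted p = 0.127 from limma; exact two-sided permutation p = 0.1). Without KO replicate 1 it was 0.88 (0.60 to 1.17, adjusted p = 0.176), and the mean of KO replicates 2 and 3 was 1.85 times the WT mean. DESeq2 gave an adjusted p of 0.0508 with all libraries and 3.08e-06 without KO replicate 1, and 0.0202 without the library labelled KO replicate 2, where the log2 fold change was 2.64, so that the call depended on the test and on which libraries entered it.

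Klf9 (ENSMUSG00000033863; chromosome 19, 23141226 to 23168134, plus strand), a Krüppel-like transcription factor that responds early to glucocorticoid, was listed at 6378, 4066 and 4530 normalized counts in KO and at 3279, 3570 and 3735 in WT hearts. The groups did not overlap. The log2 fold change was 0.48 (SE 0.15, 95% interval 0.14 to 0.81, adjusted p = 0.114 from limma; exact two-sided permutation p = 0.1) and 0.28 (0.10 to 0.47, adjusted p = 0.191) without KO replicate 1. DESeq2 gave adjusted p values of 0.00891 with all libraries, 0.0364 without KO replicate 1 and 0.00185 without the library labelled KO replicate 2. With the replicate number as a block, DESeq2 gave an adjusted p of 0.181 and did not call Klf9. Zbtb16 and Klf9 were thus the 2 induced members whose KO libraries stayed above all WT libraries when KO replicate 1 was set aside.

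**Figure D2:**
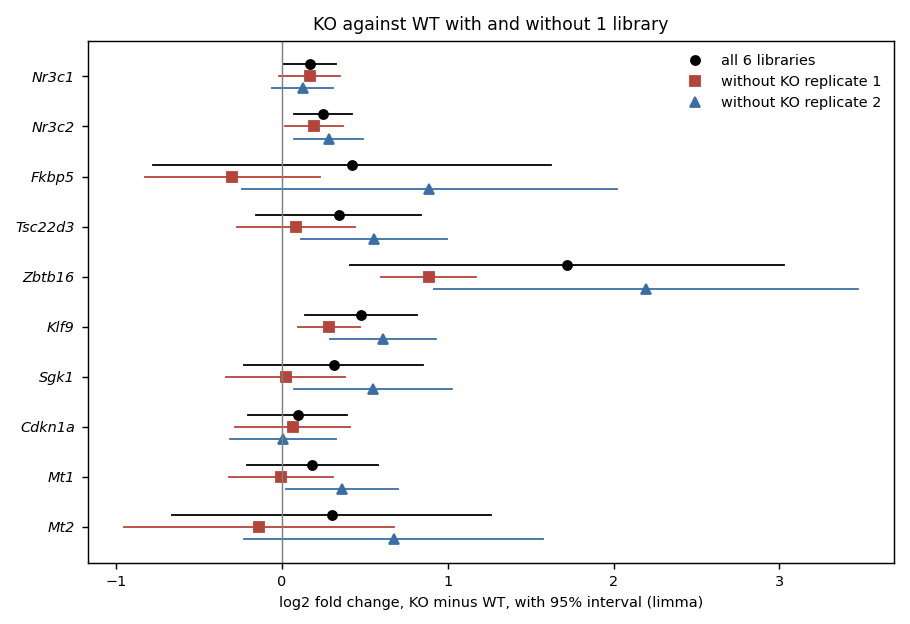
Log2 fold change, KO minus WT, of the 10 genes (x axis), with 95% intervals from limma, for all 6 libraries (black), without KO replicate 1 (red) and without the library labelled KO replicate 2 (blue). Fkbp5 moves from 0.42 to -0.30 without KO replicate 1, while Nr3c2, Zbtb16 and Klf9 keep intervals above 0 in all 3 fits.

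Sgk1 (ENSMUSG00000019970; chromosome 10, 21882184 to 21999903, plus strand) encodes a kinase that both receptors induce and that keeps sodium channels and transporters at the cell surface. RefSeq gives it 6 start sites in GRCm38.p6, each with a window of 250 bases before the start. One of these windows held the complete palindrome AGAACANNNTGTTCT of a glucocorticoid response element, a motif that reads the same on both strands and that was found in 3 of 32851 windows over all genes, or 0.00913%. The window, chr10:21993640-21993889 on the plus strand of GRCm38.p6, is printed because none of the other 15 windows read for these genes held the palindrome. Capitals mark the match, which spans bases 189 to 175 before that start and lies 0.965 kb before the most downstream start of the gene:
Sgk1: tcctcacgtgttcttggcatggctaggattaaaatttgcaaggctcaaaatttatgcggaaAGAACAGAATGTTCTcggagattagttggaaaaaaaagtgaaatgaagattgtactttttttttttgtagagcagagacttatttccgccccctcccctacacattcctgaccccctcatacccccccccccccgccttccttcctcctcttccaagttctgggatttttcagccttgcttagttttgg
The half-site AGAACA alone, searched on both strands and counted also where it lies within the palindrome, was in 16.1% of all windows. A match describes these letters and no measured binding. No window was read for Nr3c1 and Zbtb16.

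In the hearts, Sgk1 was listed at 2801, 1349 and 1740 normalized counts in KO and at 1798, 1281 and 1492 in WT. KO replicate 1 was 1.56 times the next highest library, WT replicate 1, and the other 5 libraries interleaved. The log2 fold change was 0.31 (SE 0.24, 95% interval -0.23 to 0.85, adjusted p = 0.466 from limma), 0.02 (-0.34 to 0.38) without KO replicate 1 and 0.55 (0.07 to 1.02, adjusted p = 0.194) without the library labelled KO replicate 2. DESeq2 without that last library gave an adjusted p of 0.0494.

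Of 8 genes that act on Sgk1 or are its substrates, 0 passed the test, with a median log2 fold change of 0.29. In 6 of the 8 each KO library was above each WT library, against 15.6% of all genes. The highest were Gsk3b, a kinase that Sgk1 inhibits, at 0.54 (95% interval 0.32 to 0.76, adjusted p = 0.0815 from limma) and Foxo3, a transcription factor that it keeps out of the nucleus, at 0.51 (0.10 to 0.93, adjusted p = 0.144). The lowest were Mlst8, a subunit of the mTOR complexes, at -0.13 and Ndrg2, a substrate, at 0.10. With length and GC content corrected for, the median was 0.18.

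Cdkn1a (ENSMUSG00000023067; chromosome 17, 29090976 to 29100727, plus strand), the cell cycle inhibitor p21, answers both to glucocorticoid and to p53. It was listed at 1308, 1418 and 1066 normalized counts in KO and at 1158, 1361 and 1030 in WT hearts. The groups were interleaved, and KO replicate 1, the highest library for 7 of the 8 targets, was not the highest here. Its log2 fold change was 0.10 (SE 0.13, 95% interval -0.20 to 0.39, adjusted p = 0.703 from limma). It was 0.0070 without the library labelled KO replicate 2, 0.21 without KO replicate 3, 0.20 without WT replicate 2 and 0.00019 without WT replicate 3. By annotation, Cdkn1a shares 7.68% of its exon length with a transcript on the other strand, AC167363.2. Of 10 other p53 targets 0 passed the test, and 5 had a positive and 5 a negative log2 fold change. They ran from Trp53inp1 at 0.39 and Eda2r at 0.30 to Phlda3 at -0.26 and Bax, which promotes cell death, at -0.48 (95% interval -0.75 to -0.20, adjusted p = 0.0852 from limma).

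Mt1 (ENSMUSG00000031765; chromosome 8, 94179082 to 94180327) and Mt2 (ENSMUSG00000031762; chromosome 8, 94172664 to 94173568) encode metallothioneins, small proteins that bind zinc and copper, and lie 5.513 kb apart on the plus strand. They are induced by glucocorticoid and also, through the factor Mtf1, by zinc. The metal response element core, TGCACNC or TGCGCNC on either strand, was in 21.4% of the 32851 windows, and 3 or more matches were in 1.26%. In their windows Mt2 held 3 matches and Mt1 1, and neither window held the glucocorticoid palindrome. Bases after the annotated start were not searched, so these counts depend on the start used and do not give all metal motifs of either promoter. The windows are printed because they show the metal motif beside a gene read here as a steroid target. Capitals mark the matches in chr8:94172368-94172617 for Mt2 and chr8:94178839-94179088 for Mt1, both on the plus strand of GRCm38.p6:
Mt2: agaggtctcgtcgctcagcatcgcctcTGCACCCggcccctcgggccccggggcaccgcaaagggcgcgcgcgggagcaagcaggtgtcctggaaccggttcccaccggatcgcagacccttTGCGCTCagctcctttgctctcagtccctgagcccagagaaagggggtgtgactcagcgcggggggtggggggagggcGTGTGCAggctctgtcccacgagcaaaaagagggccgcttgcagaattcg
Mt1: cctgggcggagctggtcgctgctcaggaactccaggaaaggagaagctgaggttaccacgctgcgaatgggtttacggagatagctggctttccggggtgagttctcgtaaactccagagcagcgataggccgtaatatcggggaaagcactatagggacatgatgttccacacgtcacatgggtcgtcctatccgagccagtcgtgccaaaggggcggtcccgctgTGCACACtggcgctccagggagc
The longest run of bases that the annotated transcripts of the pair share is 20, against reads of 150 bases.

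Mt1 was listed at 3885, 2334 and 2959 normalized counts in KO and at 2929, 2252 and 2784 in WT hearts. Mt2 was listed at 619.3, 199.5 and 309.5 in KO and at 347.3, 162.2 and 364.0 in WT hearts. Both were highest in KO replicate 1, and both had their 2 lowest values in the library labelled KO replicate 2 and in WT replicate 2. The log2 fold change was 0.18 (95% interval -0.21 to 0.58, adjusted p = 0.569 from limma) for Mt1 and 0.30 (-0.66 to 1.26, adjusted p = 0.711) for Mt2. Without KO replicate 1 these were -0.01 (-0.32 to 0.31) and -0.14 (-0.95 to 0.67), and without WT replicate 2 the value of Mt2 was -0.08. Values of Mt2 are uncertain, since 73.5% of its exon length is shared with the antisense gene Gm45774 and the treatment of strand is not given; Gm45774 was listed at 61.5, 32.0 and 39.0 normalized counts in KO and at 40.0, 16.6 and 23.7 in WT hearts.

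Among 11 genes of zinc handling 0 passed the test, and their median log2 fold change was 0.06. The highest were Slc30a1, the zinc exporter that Mtf1 induces, at 0.34 (95% interval 0.09 to 0.59, adjusted p = 0.121 from limma) and Slc39a14, an importer, at 0.27 (adjusted p = 0.189). The lowest were Mt3, a metallothionein of the brain, at -0.97 (adjusted p = 0.195), which was listed at 13.9 normalized counts in KO replicate 1 and at 36.4 to 69.1 in the other libraries, and Slc39a7 at -0.09.

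Per kb of exon, WT hearts had the highest mean level for Mt1 (2131 ± 286.2 normalized counts, SD, n = 3), followed by Klf9 (732.7 ± 47.9), Tsc22d3 (516.1 ± 85.6), Mt2 (495.1 ± 190.5), Nr3c1 (474.2 ± 26.1), Cdkn1a (332.9 ± 46.9), Sgk1 (310.7 ± 53.04), Nr3c2 (140.7 ± 3.61), Zbtb16 (110.4 ± 12.5) and Fkbp5 (56.4 ± 16.5). This order depends on the exon lengths, which join the exons of all annotated transcripts of a gene. For Mt1 these form 1 block of 1246 bases over its whole span. In this order of levels, Tsc22d3, Mt2 and Nr3c1 did not differ from each other beyond the spread between hearts, nor did Cdkn1a from Sgk1, and the values of Mt2 in the WT hearts overlapped those of Tsc22d3, Nr3c1, Cdkn1a and Sgk1. In KO hearts the mean level of Zbtb16 was 519.3 ± 546.7 per kb, the SD being larger than the mean because KO replicate 1 was at 10.4 times the WT mean.

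Across the libraries, most targets had their extremes in the same hearts. KO replicate 1 held the highest value of 7 of the 8 targets and of 8 of the 10 genes, against 28.2% of all genes, and WT replicate 2 held the lowest of 5 of the 8 targets, against 13.3% of all genes. The median deviation of the 8 targets from their mean log2 level was 0.71 in KO replicate 1, -0.26 in the library labelled KO replicate 2 and 0.06 in KO replicate 3, and 0.01, -0.43 and -0.16 in WT replicates 1 to 3. So the genotypes overlapped, and the spread within KO was the widest. The adipocyte markers were lowest in KO replicate 1, where most targets were highest. They summed to 1065 normalized counts there and to 3815 and 7588 in the other KO libraries, against 2932 to 6824 in WT. None was at 0, and their part in the result was not tested. The erythroid markers summed to 29390 to 133453 in KO and 52272 to 116933 in WT hearts, and 5 of 5 were in the table.

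Genes with the nearest profiles to 3 of the targets were sought among 16015 others by the root mean square distance of centred log2 levels over the 6 libraries. To Fkbp5 these were Fam107a (distance 0.173), Sik1 (0.218) and Map3k6 (0.225), to Tsc22d3 Tecrl (0.0545), Cebpb (0.0817) and Tent5a (0.09), and to Mt2 Gm38393 (0.109), Stc1 (0.152) and Bhlhe40 (0.153). Sik1, a kinase of the AMPK family, was listed at 4433 normalized counts in KO replicate 1, at 971.7 and 1031 in the other KO libraries and at 708.9 to 1432 in WT hearts. The nearest of the other members was Sgk1 for Tsc22d3, at 0.0953, while Fkbp5 lay 0.41 from Mt2. These distances describe 6 libraries that share the high values of KO replicate 1.

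**Figure D3:**
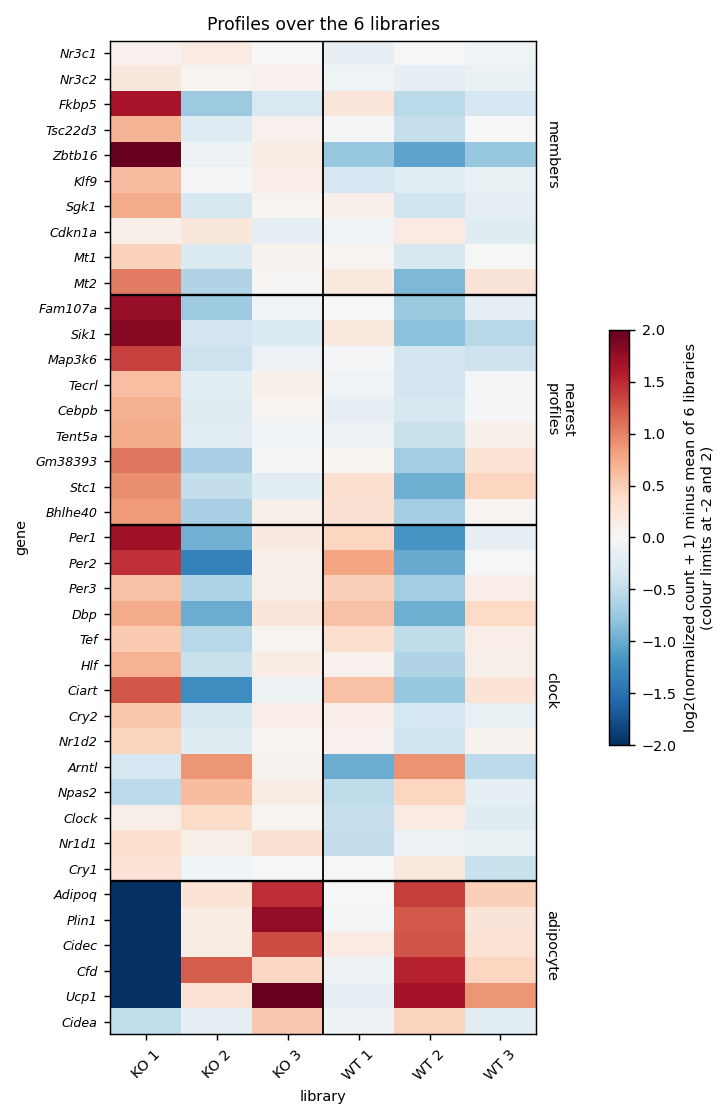
Colour gives log2(normalized count + 1) minus its mean over the 6 libraries (x axis) for the 10 genes, the genes with the nearest profiles, the clock list and the adipocyte markers (y axis), with colours ending at -2 and 2. Fkbp5, Tsc22d3, Sgk1, Mt1 and Mt2 are high in the column KO 1 and low in KO 2 and WT 2, where Per1, Per2 and Dbp are low and Arntl is high, and the adipocyte markers are low in KO 1.

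The daily clock is set in part by glucocorticoid, and Per1 carries a response element of its own. Per1 was listed at 3769, 598.5 and 1313 normalized counts in KO and at 1560, 513.5 and 1042 in WT hearts, which puts the library labelled KO replicate 2 and WT replicate 2 lowest, as for Mt1, Mt2, Tsc22d3 and Sgk1. Arntl, which peaks opposite to the Per genes, was listed at 414.8, 973.8 and 556.1 in KO and at 266.4, 988.6 and 368.1 in WT hearts, with those same libraries highest. Of the 14 clock genes 0 passed the test. The highest log2 fold changes were those of Per1 at 0.61 (95% interval -0.79 to 2.01; -0.09 without KO replicate 1 and 1.24 without the library labelled KO replicate 2) and Nr1d1 at 0.50 (0.26 to 0.74, adjusted p = 0.0815 from limma), and the lowest those of Ciart at -0.07 and Dbp at -0.01. With 1 library left out, Ciart lay between -0.71 and 0.53 and Dbp between -0.50 and 0.49, Ciart being lowest without KO replicate 1, Dbp without WT replicate 2, and both highest without the library labelled KO replicate 2. The part of the hour of collection in the values of the targets was not tested.

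Of 30 other genes known to be induced by glucocorticoid, 26 had a positive and 4 a negative log2 fold change, and 0 passed the test. Their median was 0.31, and 0.12 without KO replicate 1. In 5 of the 30 each KO library was above each WT library and in 2 each was below, against 15.6% and 14.6% of all genes, so that the share above was near the background. At an unadjusted p under 0.05 from limma, 10 of the 30 were higher, against 13% of all genes, and 2 were lower, against 1681 of 16016 genes. DESeq2 called 5 of the 30 higher, against 8.22%, and 0 lower, against 602 of 11979 genes. In 22 of the 30 the highest value was in KO replicate 1, against 28.2% of all genes. Hif3a, a regulator of the hypoxia response, was listed at 109.2, 35.1 and 48.8 normalized counts in KO and at 42.0, 16.6 and 20.6 in WT hearts, a log2 fold change of 1.20 (95% interval 0.14 to 2.26, adjusted p = 0.17 from limma). Pdk4, a kinase that holds back glucose oxidation, was at 0.96 (-0.06 to 1.98, adjusted p = 0.234), and at 0.41 without the library labelled KO replicate 2. The lowest were Gadd45g at -0.30 (adjusted p = 0.158) and Anxa1, an anti-inflammatory protein, at -0.26 (adjusted p = 0.165), and in both each KO library lay below each WT library.

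Of the inflammatory genes that the receptor represses, 12 of 13 were in the table. Among these 0 passed the test, 9 had a negative and 3 a positive log2 fold change, and the median was -0.15. The median became -0.04 without the library labelled KO replicate 2 and -0.30 without KO replicate 3. It was -0.025 when only genes with a mean of at least 50 were kept, and -0.065 with length and GC content corrected for. Cxcl10, a chemokine, was listed at 9.92, 22.7 and 33.7 normalized counts in KO and at 47.1, 38.5 and 48.5 in WT hearts, with each KO library below each WT library and a log2 fold change of -1.13 (95% interval -2.05 to -0.20, adjusted p = 0.148 from limma). Ccl2, which draws monocytes, was at -0.92 (-1.73 to -0.11, adjusted p = 0.17). The highest were Selp at 0.34 and Ptgs2 at 0.31. The macrophage markers, 5 of 5 in the table and none at 0, summed to 5614 to 5827 normalized counts in KO and to 5016 to 5607 in WT hearts.

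Relatives of the receptors and targets were read in the same way, 13 of 15 being in the table, and 0 passed the test. Their median log2 fold change was 0.19, which became 0.06 without the library labelled KO replicate 2, 0.08 without WT replicate 1, 0.12 without WT replicate 3 and 0.10 with length and GC content corrected for. Klf13, which shares the zinc fingers of Klf9, was at 0.40 (95% interval 0.16 to 0.65, adjusted p = 0.0901 from limma). The lowest were Tsc22d1 at -0.11 and Klf16 at -0.07.

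**Figure D4:**
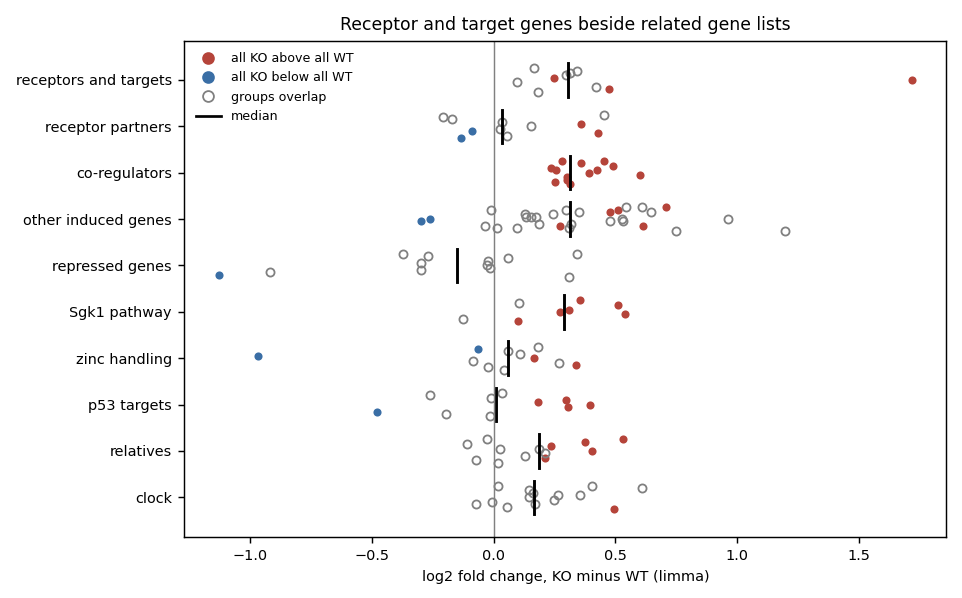
Log2 fold change, KO minus WT (x axis), of each gene in the lists named on the y axis, with the list's median as a black line. Red points are genes whose KO libraries were all above the WT libraries, blue points those all below, and open points overlap; all 13 co-regulators are red, while 3 of the 10 receptors and targets are.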

How the data were processed

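Hearts of 3 KO and 3 WT mice were sequenced as paired reads of 150 bases. The deposited values are the authors' normalized signal: reads per gene over a size factor of each library, with genes of few reads left out. The submitters' processing notes name Trimmomatic 0.36, STAR 2.5.2b, featureCounts, Subread 1.5.2, DESeq2 and GRCm38. The annotation and the treatment of strand are not given in the sources used here. Divided by the value of 1 read, 100% of values in each library came out whole within 0.01 of a read. These recovered reads were used for the count tests alone.

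The members and lists were chosen with earlier results of these data known. Named are the 10 members, Slc4a4, the 2 highest and 2 lowest genes of each list, Hsd11b1 and Hsd11b2, the 3 nearest profiles of Fkbp5, Tsc22d3 and Mt2, and markers of cell types. Of the relatives, 1 gene so chosen is not reported here. Fkbp4, Arntl, Per1 and Sik1 are described further after their values were seen.

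Levels were compared on log2(normalized count + 1) with limma 3.58.1 (R 4.3.3) with a variance trend, two-sided, over 16016 genes with a mean of at least 10, with Benjamini-Hochberg adjustment. Such fold changes understate those of low genes. Alternatives were pseudocounts of 0.5 and 5, no filter, a mean of at least 50, 2 other scalings, no variance trend, quality weights, a block for the replicate number, each library left out, edgeR 4.0.16, DESeq2 1.42.0, and a spline correction for the length and GC content of transcripts. DESeq2 without KO replicate 1 or 2, and DESeq2 and edgeR with the block, were added after seeing the data. The procedures were tested on simulated data in which no library stood apart as KO replicate 1 does. That test therefore does not show how they handle such a library. Exon lengths and positions are those of GENCODE M21 (GRCm38), and windows before start sites those of RefSeq (GRCm38.p6), matched by symbol for 8 of the 10 genes. Motifs were searched on both strands: the palindrome, its half-site, the metal motif, the E-box CACGTG and a p53 response element of 20 bases, by name.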

Additional observations from a re-analysis of the deposited data

How the results depend on the processing

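Of 230 values of the 10 genes under 23 alternatives, 215 kept their direction and their side of the threshold, 8 passed it, all with DESeq2, and 7 changed sign. Those that changed sign were Fkbp5 (-0.32), Mt1 (-0.0057) and Mt2 (-0.19) with DESeq2 without KO replicate 1, and the same genes with limma when a library was left out, with ranges of -0.30 to 0.89 for Fkbp5, -0.0054 to 0.36 for Mt1 and -0.14 to 0.68 for Mt2. With 1 library left out, limma called 0 to 3 of all genes, 0 of the members, and gave Slc4a4 between -1.51 and -0.59; the 3 calls, Slc4a4 among them (adjusted p = 0.0121), came without the library labelled KO replicate 2. DESeq2 called 1587 of the 16016 genes entered and 1 of the 10 members. Without KO replicate 1 it called 776 of 16016 genes and 2 of the 10 members. Without KO replicate 2 it called 1195 of 16016 genes, 4 of the 10 members and Slc4a4 at -1.52. The cause of these differences between tests was not tested. The labels do not say whether the replicate numbers pair the hearts. Deviations of same-numbered hearts from their group means correlated over genes at 0.23, 0.07 and -0.03. Not every heart correlated best with its own number. With 3 hearts per group these values cannot show whether hearts were paired. With the replicate number as a block, limma and edgeR called 0 genes, and DESeq2 called 1113 of 16016 genes and 1 of the 10 members, Tsc22d3. The median of the 10 genes lay between 0.08 and 0.55 with 1 library left out. Rescaling to the same total moved the median of all genes to -0.08. The median of the zinc list lay near 0: -0.012 after that rescaling, -0.0077 with DESeq2 without KO replicate 2, and -0.0041 to 0.12 with 1 library left out.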

Other observations

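Angptl4, a secreted inhibitor of lipoprotein lipase that glucocorticoid and fatty acids induce, was listed at 616.3, 5041 and 1442 normalized counts in KO and at 803.1, 2205 and 1332 in WT hearts, with a log2 fold change of 0.31 (95% interval -1.21 to 1.82, adjusted p = 0.818 from limma), which was 1.02 without KO replicate 1 and -0.50 without the library labelled KO replicate 2. Pdk4 was listed at 19091, 57122 and 17396 in KO and at 8566, 19328 and 15483 in WT hearts. Both were highest in the library labelled KO replicate 2, where most receptor targets were low, and Angptl4 was lowest in KO replicate 1, where most were high. Angptl4 was chosen after its values were seen. Ndrg1, a substrate of Sgk1, was listed at 2086, 1809 and 1785 in KO and at 1454, 1665 and 1577 in WT hearts, so that the groups did not overlap while those of Sgk1 did; it too was chosen after its values were seen.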
